A study of Mus musculus with 4 samples.

Results

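The genes described are 10 regulators of naive pluripotency, found by symbol in the deposited count tables: Nanog, Zfp42, Klf2, Klf4, Klf5, Esrrb, Tfcp2l1, Prdm14, Tbx3 and Tcl1. All 10 were present, among 78028 rows in each table. RNA came from 4 samples, generated independently per the labels, of E14TG2a, a line of mouse embryonic stem cells, after differentiation in the cocktail named A-HIC (advanced hepatic-inducing), and the labels call the product hepatocyte-like cells. The 4 libraries form a single group, carry the replicate numbers 1 to 4, share 1 cell line and have no undifferentiated or untreated library beside them here. Levels are therefore described within these libraries, and no change from stem cells was measured. Libraries 1 to 4 held 37797816, 40154964, 29518642 and 40124479 counts.

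Naive pluripotency is the ground state of the early epiblast, and mouse embryonic stem cells hold it in culture with LIF or with inhibitors of Mek and Gsk3. Around the core factors Pou5f1 (Oct4) and Sox2, a web of ancillary factors keeps the state stable. LIF acts through Stat3 on Klf4 and Tfcp2l1, relief of Tcf7l1 repression acts on Esrrb, Klf2 and Nanog, and phosphatidylinositol 3-kinase signalling acts on Tbx3. Klf2, Klf4 and Klf5 overlap in function, Prdm14 represses Fgf signalling and DNA methyltransferase genes, and Zfp42 (Rex1) is the usual reporter of the naive state. As the state is left, these genes are shut off while Pou5f1 persists for longer. Of the 10, 9 encode transcription factors; Tcl1 encodes a cofactor of the kinase Akt, so the heading of transcription factors does not cover it.

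The label was set against hepatocyte markers first. Of 10 such markers, 3 reached 1 TPM (a transcript level scaled for gene length and library size) in all 4 libraries, and Cyp2e1 had 0 counts. Summed over the 10, they gave 12.9, 92.2, 18.1 and 39.0 TPM in libraries 1 to 4. The 10 naive factors summed to 3155, 2106, 2895 and 2397 TPM in the same libraries, or 0.211% to 0.315% of all TPM. These markers go against the label, and the libraries are called A-HIC libraries from here on.

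All 10 naive factors were detected well above the expression threshold in every library. Each reached 1 TPM in all 4 libraries, which 30.3% of all rows with a known length and 63.5% of protein-coding genes did. Each also reached 10 TPM in all 4, as did 44.1% of protein-coding genes. Their median of mean levels was 185 TPM, against 7.62 TPM over the 19900 protein-coding genes. By mean TPM they ranked between 88th (Zfp42) and 7516th (Prdm14) of those genes.

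Zfp42, a zinc finger factor of the Yy1 family, was the most abundant. Its level was 1094, 726, 1043 and 838 TPM in libraries 1 to 4, a mean of 925 ± 173 TPM (SD, n = 4). It made up 34.5% to 36.0% of the summed TPM of the 10 genes in each library. Reads of the pseudogene Zfp42-ps1 may be split with Zfp42: that row held 1231 to 1991 counts, between 8.88% and 9.37% of the Zfp42 count in every library, so the Zfp42 level is uncertain by that share. Nanog, the homeodomain factor that lets stem cells renew without LIF when overexpressed, was second, at 651, 352, 541 and 414 TPM (mean 489 ± 134). Its pseudogene rows Nanog-ps1 and Nanog-ps2 held 1 count or none in each library. Esrrb, an orphan nuclear receptor that Tcf7l1 represses, followed at 333, 209, 301 and 262 TPM (mean 276 ± 53.6). For these 3 genes library 1 was highest and library 2 lowest.

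Of the 3 Kruppel-like factors, Klf5 and Klf4 lay close together and Klf2 lower. Klf5 was measured at 243, 227, 284 and 205 TPM in libraries 1 to 4 (mean 239.9 ± 33.3, SD, n = 4), Klf4 at 262, 222, 193 and 239 TPM (mean 229 ± 29.1), and Klf2 at 142, 116, 147 and 130.0 TPM (mean 134 ± 13.8). Klf4 was lowest in library 3, where Klf5 and Klf2 were highest. Tfcp2l1, a CP2 family factor that LIF induces through Stat3, stood at 163, 109, 155 and 135 TPM (mean 141 ± 23.9).

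Tbx3, a T-box factor that also acts in hepatoblasts and in extraembryonic endoderm, was measured at 130.4, 66.9, 101 and 92.8 TPM in libraries 1 to 4 (mean 97.8 ± 26.2, SD, n = 4). The antisense gene Tbx3os1 shares 115 exonic bases with it; its row held 1.28% to 1.63% of the Tbx3 count, and the libraries keep no strand. Tcl1 stood at 112, 64.0, 107 and 67.4 TPM (mean 87.5 ± 25.3). Prdm14, a PR domain factor also needed in germ cells, was far below the others at 23.99, 13.9, 22.8 and 13.9 TPM (mean 18.6 ± 5.51), which is 3.36% to 4.22% of the Nanog level. Its lowest count, 361 in library 2, has an exact 95% Poisson interval of 325 to 400.2 counts, and such intervals cover counting error only. Both ends of a read pair may have been counted, in which case the counting CV at that count is 7.44% and not 5.26%, and the interval is too narrow. For Tcl1 and Prdm14, libraries 2 and 4 were nearly equal and both low.

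In the order of mean TPM, some neighbours were separate and others were not. Zfp42 exceeded Nanog by 0.94 ± 0.13 on the log2 TPM scale (SD of the within-library difference, n = 4) and Nanog exceeded Esrrb by 0.81 ± 0.13, each in 4 of 4 libraries and without overlap of the ranges. Esrrb, Klf5 and Klf4 were not separable with these lengths: Esrrb was above Klf5 in 3 libraries, and Klf5 above Klf4 in 2, with overlapping ranges. Klf4 exceeded Tfcp2l1 by 0.71 ± 0.30 in 4 of 4 libraries without overlap. Tfcp2l1 and Klf2 overlapped, as did Tbx3 and Tcl1, and Klf2 exceeded Tbx3 in 4 of 4 libraries although their ranges overlapped. Tcl1 exceeded Prdm14 by 2.23 ± 0.03, the steadiest of the 9 steps. With 4 libraries an exact sign-flip permutation test, two-sided, cannot go below p = 0.13, so the order rests on these counts. With the length of the longest coding transcript in place of all exons, an alternative added after seeing the data, the order of means was the same, but the steps changed. Nanog then exceeded Esrrb by 0.33 and Klf5 exceeded Klf4 by 0.69, each in 4 of 4 libraries, whereas Klf2 exceeded Tbx3 by 0.07, in 3 of 4, and Esrrb exceeded Klf5 by 0.05, in 2 of 4.

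**Figure D1:**
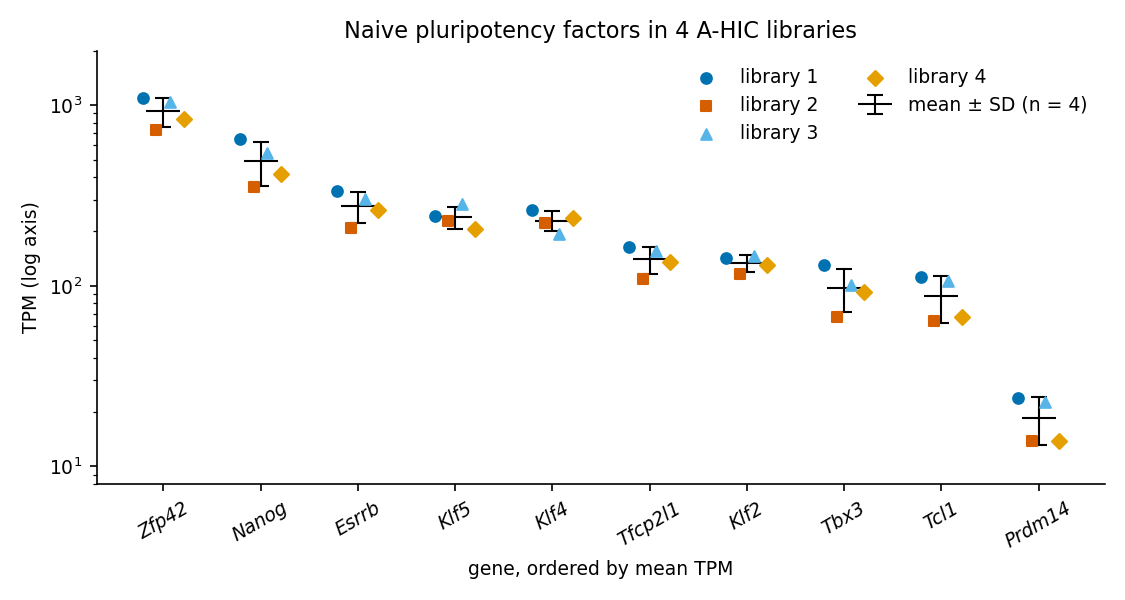
Level of each naive factor in TPM (vertical log axis) in libraries 1 to 4 (coloured points), with the mean and SD over the 4 libraries in black, ordered by mean. Zfp42 lies at 726 to 1094 TPM and Prdm14 at 13.9 to 23.99 TPM. Esrrb, Klf5 and Klf4 overlap.

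Promoter sequences are shown for Nanog and Zfp42, the most abundant members, and for Klf4, the member whose pattern over libraries differs most from theirs. They run from 250 bases before to 50 bases after a RefSeq start site on the build GRCm38.p6, which is not the submitters' build, and 7 of the 10 members had at least 1 such window (9 windows in all). Capitals mark 4 motifs on either strand: TTTGCAT, the core of the octamer that Pou5f1 binds (ATGCAAA in reverse); GGGCGG, the GC box of Sp and Klf factors; CACCC, the Klf box; and AGGTCA, bound by nuclear receptors such as Esrrb. Where 2 GC boxes overlap, as in Klf4, the capitals run on. The Nanog window lies at chr6:122707315-122707614 on the plus strand, the Zfp42 window at chr8:43306960-43307259 on the minus strand and the Klf4 window at chr4:55532426-55532725 on the minus strand.
Nanog: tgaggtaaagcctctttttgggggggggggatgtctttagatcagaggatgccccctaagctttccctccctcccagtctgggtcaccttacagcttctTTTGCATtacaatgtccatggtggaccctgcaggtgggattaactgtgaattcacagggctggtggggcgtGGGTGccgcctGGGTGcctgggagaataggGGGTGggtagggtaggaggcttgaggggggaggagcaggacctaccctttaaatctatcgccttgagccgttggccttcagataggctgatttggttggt
Zfp42: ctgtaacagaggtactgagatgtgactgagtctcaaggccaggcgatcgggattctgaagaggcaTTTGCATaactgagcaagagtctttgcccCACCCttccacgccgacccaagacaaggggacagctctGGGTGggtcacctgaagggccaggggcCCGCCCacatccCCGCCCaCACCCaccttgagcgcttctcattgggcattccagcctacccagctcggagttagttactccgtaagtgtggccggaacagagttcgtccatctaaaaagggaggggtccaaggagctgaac
Klf4: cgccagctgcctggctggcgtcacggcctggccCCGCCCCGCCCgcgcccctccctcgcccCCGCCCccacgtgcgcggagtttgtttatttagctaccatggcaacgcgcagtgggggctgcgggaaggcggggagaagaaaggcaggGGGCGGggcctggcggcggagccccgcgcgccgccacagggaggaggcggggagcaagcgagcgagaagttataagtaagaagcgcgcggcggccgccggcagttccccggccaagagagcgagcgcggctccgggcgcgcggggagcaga

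TTTGCAT was found in the windows of Nanog and Zfp42 and in no window of Klf4, Klf2, Esrrb, Tcl1 or Tfcp2l1. Among all 32851 promoter windows of this length, 4.63% held it. In Nanog it began 151 bases before the start site shown and was followed, after 1 base, by ACAA, a sequence that Sox factors bind. This arrangement occurred in 12 of all windows, among them both Nanog windows, which overlap and share the site. In Zfp42 TTTGCAT began 185 bases before the start. GGGCGG had 4 matches in Klf4, 2 in Klf2, 2 in Tcl1 and 2 in Zfp42, and was found in 35.7% of all windows. CACCC was found in 8 of the 9 member windows, against 57.5% of all, and not in Klf4. The overlapping Nanog windows hold the same CACCC matches, so the windows are not all separate promoters. AGGTCA was found in 1 member window, the upstream one of Nanog, which is not printed, and in 16.3% of all. The Klf4 and Klf2 windows were rich in G and C, at 74.3% and 69.3%, against a median of 52.7%. Matches of these letters do not show binding.

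Members were then compared with the other genes of their families. By mean TPM a member led in 6 of 7 families. Zfp42, Esrrb, Tfcp2l1, Tbx3 and Tcl1 each had the highest mean of their family. Klf5 and Klf4 held the first and second places among 17 Klf genes, whereas Prdm14 did not lead its family. The leads of Tbx3 and of the Klf members did not hold in every library, as given below. Esrrb stood at 276 TPM, while its relative Esrra, a regulator of mitochondrial genes, stood at 24.2 ± 2.40 TPM (SD, n = 4) and Esrrg at 0.161 ± 0.129 TPM. Zfp42 stood far above Yy1 at 99.6 ± 11.2 TPM, and Yy2 had 0 counts. Tcl1 stood alone in its family: Tcl1b1, Tcl1b3 and Tcl1b5 had 0 counts, which allows up to 3 counts per library (0.0747 to 0.102 CPM, counts scaled to library size), or 6 counts (0.149 to 0.203 CPM) if both ends of a pair were counted, and Mtcp1 stood at 5.70 ± 0.362 TPM.

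Other families were shared more evenly. Ubp1, a ubiquitous relative of Tfcp2l1, stood at 90.2 ± 2.80 TPM, against 141 TPM for Tfcp2l1 itself, and Tfcp2 at 12.2 ± 1.51 TPM. Mga, a T-box factor that represses germline genes, stood at 74.2 ± 9.17 TPM beside 97.8 TPM for Tbx3. In library 2 Mga was above Tbx3, at 86.8 against 66.9 TPM. With no scaling for length, the Mga count was above the Tbx3 count in every library. The 3 Klf members made up 42.7% to 49.5% of the summed TPM of the Klf family. By mean, Klf9 at 198 ± 17.9 TPM and Klf6 at 169 ± 49.9 TPM lay between Klf4 and Klf2. In library 2, however, Klf6 (235 TPM) was above Klf5 (227 TPM) and Klf4 (222 TPM). In libraries 1 and 3 Klf6 (132 and 129 TPM) was below Klf2 (142 and 147 TPM). Klf9 (217 TPM) was above Klf4 (193 TPM) in library 3. In the Prdm family, Prdm4 at 49.4 ± 3.74 TPM and Prdm2 at 45.8 ± 2.93 TPM were the 2 genes above Prdm14. All 6 genes listed as corepressor partners of Prdm14 were expressed, among them Cbfa2t2, which binds it directly, at 60.1 ± 3.77 TPM and the polycomb subunit Suz12 at 340.5 ± 43.1 TPM.

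**Figure D2:**
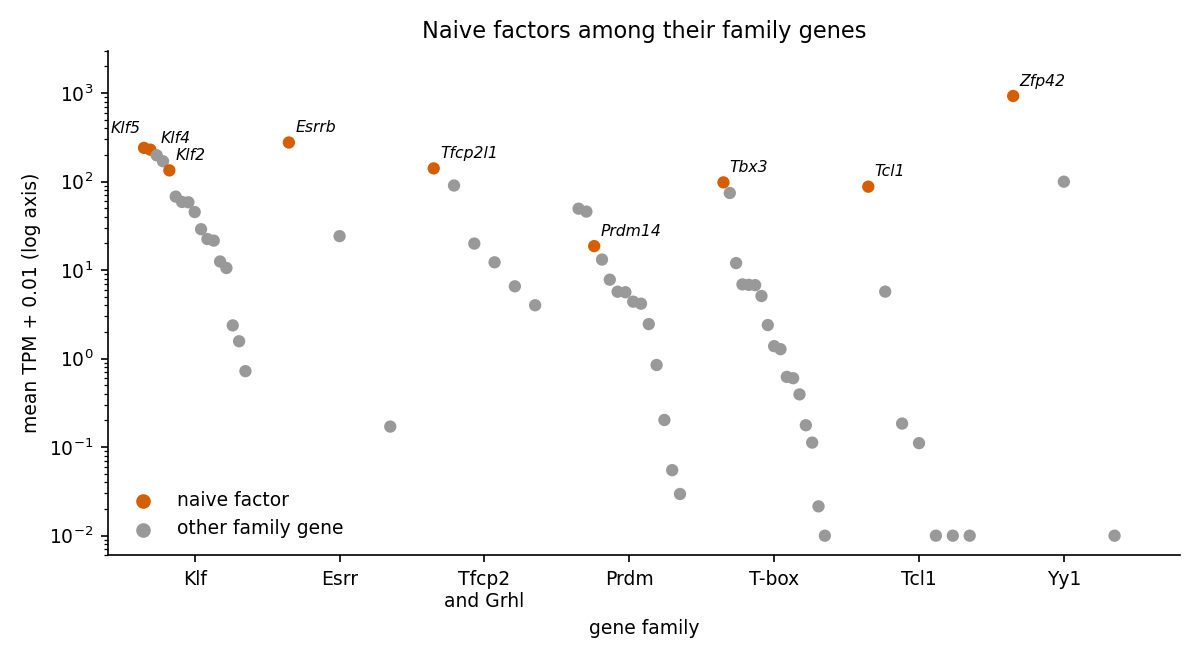
Mean TPM over 4 libraries plus 0.01 (vertical log axis) of the genes of 7 families, each family sorted from high to low, with naive factors in orange and other family genes in grey. Zfp42, Esrrb, Tfcp2l1, Tbx3 and Tcl1 lead their families, Klf5 and Klf4 lead the Klf genes, and Prdm14 lies below 2 of the other Prdm genes.

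Across the 4 libraries, most members had the same highest and lowest library, although no member passed the adjusted tests of single libraries given further on. Levels were compared as log2(CPM + 1) scaled by TMM factors and centred on each gene's mean. In that measure 8 of 10 members were highest in library 1 (29.7% of all 17398 genes tested were) and 2, Klf5 and Klf2, in library 3 (21.2%). None was highest in library 2 (29.2%) or library 4 (19.9%). At the low end, 8 members were lowest in library 2 (30.3% of genes tested), Klf4 in library 3 (20.7%), Klf5 in library 4 (20.4%) and none in library 1 (28.6%). The full order of libraries 1, 3, 4, 2 from high to low was shared by 7 members and by 11.8% of all genes tested. The 7 were Zfp42, Nanog, Esrrb, Tfcp2l1, Tbx3, Tcl1 and Prdm14. Some of these ranks were near ties. Prdm14 had -0.349 in library 2 and -0.346 in library 4, and Klf2 had 0.124 in library 3 and 0.107 in library 1.

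The range over libraries varied among members. Tbx3 had the widest range on that scale, with centred values of 0.47, -0.50, 0.07 and -0.04 in libraries 1 to 4. Nanog had 0.47, -0.43, 0.17 and -0.20, and Klf2 had the narrowest range, with 0.11, -0.20, 0.12 and -0.03. Klf4 had 0.22, -0.03, -0.25 and 0.07, so it was alone in having library 3 below all others. In TPM the highest library exceeded the lowest by 1.27-fold for Klf2, 1.36-fold for Klf4, 1.38-fold for Klf5, 1.85-fold for Nanog and 1.95-fold for Tbx3.

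Markers of other cell types also varied over the libraries. All 12 parietal and primitive endoderm markers were expressed, with summed levels of 3250, 10390, 3956 and 7926 TPM in libraries 1 to 4. All 12 were highest in library 2 (29.2% of all genes tested were) and lowest in library 1 (28.6%). All 9 fibroblast markers were expressed, at 1592, 3471, 1352 and 2408 TPM in sum. Library 2 had the largest sum of both marker lists, and of the hepatocyte markers, and it was the lowest library for 8 naive factors. In bulk RNA, fewer cells of a type and less RNA per cell cannot be told apart, and the part of these cells in the pattern of the naive factors was not tested.

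**Figure D3:**
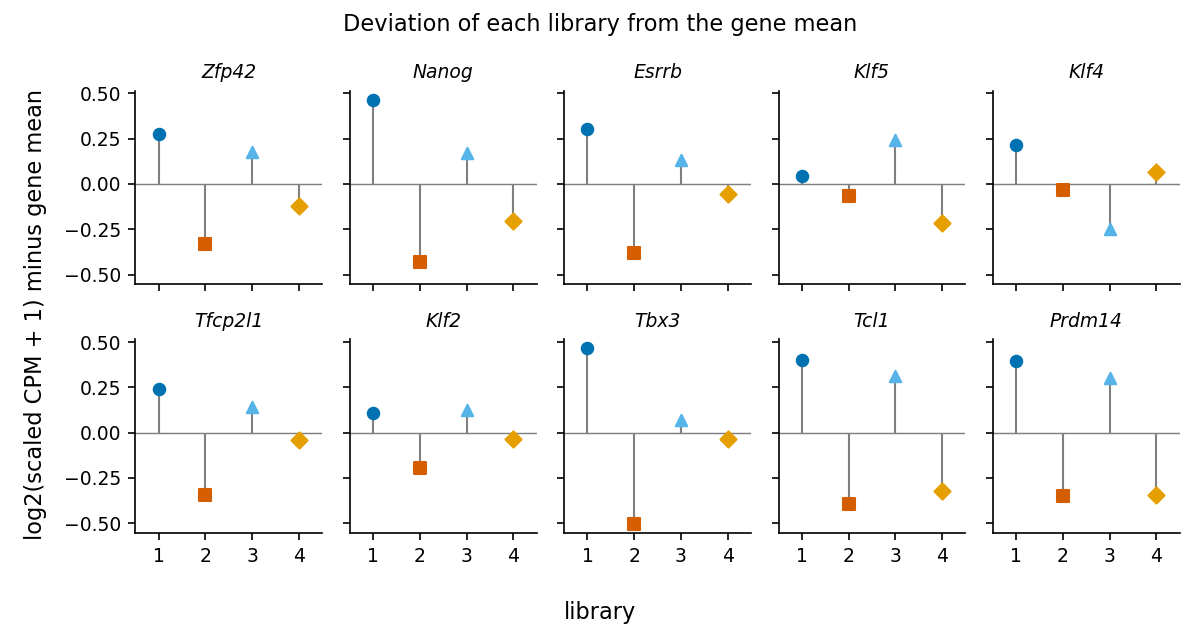
Deviation of libraries 1 to 4 (horizontal axis) from each gene's mean on the log2(scaled CPM + 1) scale (vertical axis), 1 panel for each naive factor. Library 1 is highest and library 2 lowest in 7 panels, although libraries 2 and 4 nearly tie in Prdm14. Klf5, Klf4 and Klf2 differ.

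Each library was tested against the other 3 over all genes. With edgeR's quasi-likelihood test and Benjamini-Hochberg adjustment at 0.05, 0 of 10 members were called for any library, and 0% of the 17398 genes tested were called in each of the 4 comparisons. At an unadjusted p under 0.05, 2 members passed in library 1 (5.32% of genes), 5 in library 2 (7.38%) and none in library 3 (1.57%) or library 4 (1.55%). The 2 in library 1 were Tbx3, higher by 0.61 ± 0.22 on the log2 scale (fold change ± SE), and Nanog, higher by 0.60 ± 0.22, both with an adjusted p of 0.723. The 5 in library 2 were Tbx3 at -0.69 ± 0.21, Nanog at -0.61 ± 0.25, Esrrb at -0.52 ± 0.16, Tfcp2l1 at -0.47 ± 0.15 and Zfp42 at -0.45 ± 0.18, each with an adjusted p of 0.626 in edgeR. DESeq2 called 0 members in each comparison, and called 0.0719%, 0.446%, 0.0102% and 0.0102% of the genes it tested for libraries 1 to 4. These fits take the spread of the 3 libraries for the single one. Without library 3, edgeR called 7 members for library 1, all higher, and 12.4% of all genes in either direction. Without library 4 it called 7 members for library 2, all lower, and 14.4% of all genes. Without library 1 it called 2 members for library 3 (7.35% of genes), and without library 2 it called 3 members for library 4 (7.8%). The spread then comes from only 2 libraries. With no filter on low counts it called Nanog and Tbx3, higher in library 1 (0.836% of genes called) and lower in library 2 (1.19%).

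The spread between cultures was also estimated from the count model, as edgeR's biological coefficient of variation for each gene. Its median was 0.164 over the 10 members and 0.185 over all genes tested, a set with many genes of low count. Among the 1000 genes nearest in mean level, Nanog (0.206) stood above 96.0% and Tbx3 (0.206) above 94.6%, while Klf2 (0.127) stood above 58.3%. Tcl1 (0.224) and Prdm14 (0.250) stood above 93.6% and 88.6%. All 10 members were above the median of genes of like level, the 3 Klf factors by the least.

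Pou5f1, the core factor that naive and primed cells share, was measured at 611, 420.1, 632 and 499 TPM in libraries 1 to 4, and Sox2 at 148, 104, 154 and 127 TPM. Pou5f1 has processed pseudogenes that could take some of its reads. Relative to Pou5f1, the members were steadier than by themselves: the median SD of the log2 TPM was 0.285 over the 10 genes, and that of the log2 ratio to Pou5f1 was 0.180. Over 16059 genes tested the same medians were 0.208 and 0.338. Zfp42 kept the closest step, at 1.79, 1.73, 1.65 and 1.68 times Pou5f1, with an SD of 0.05 on the log2 scale. Tfcp2l1 stood at 0.267, 0.260, 0.246 and 0.272 times Pou5f1. These 2 had the smallest SD of the ratio among the 10 members.

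Other members left that ratio. Nanog stood at 1.07 times Pou5f1 in library 1 and at 0.838, 0.856 and 0.830 times in libraries 2 to 4, so library 1 was set apart from the other 3. Klf4 varied most, at 0.429, 0.529, 0.305 and 0.479 times Pou5f1, with an SD of 0.34. For Klf4 and Klf5 the ratio varied as much as or more than the level (SD of 0.34 and 0.20, against 0.19 and 0.20 for the level).

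**Figure D4:**
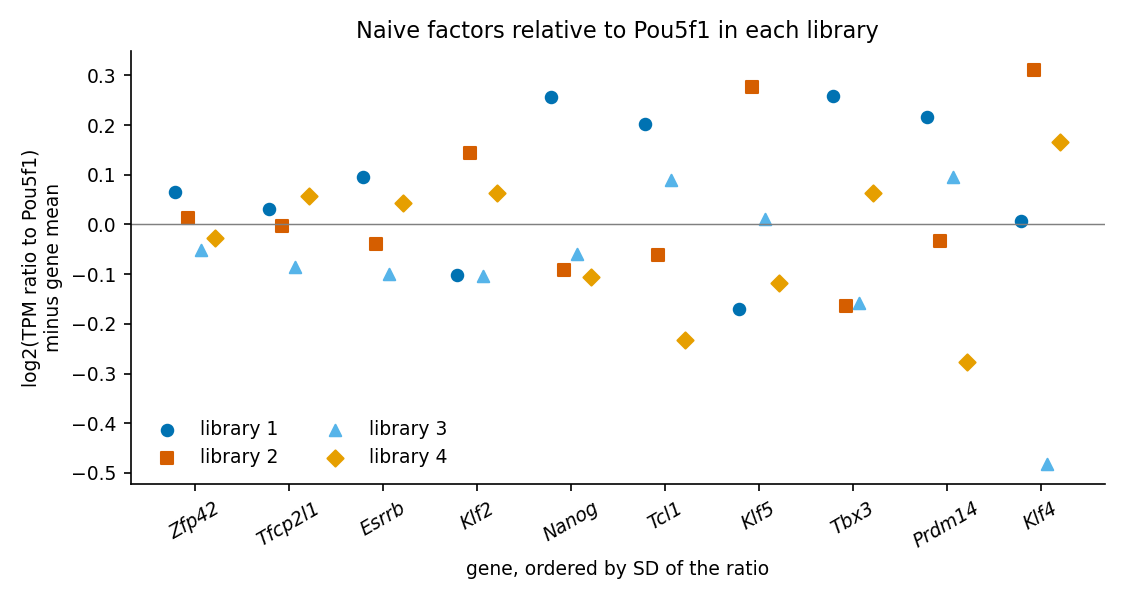
Log2 ratio of each naive factor's TPM to that of Pou5f1, minus the gene's mean (vertical axis), for libraries 1 to 4 (coloured points), with genes ordered by the SD of the ratio. Zfp42 and Tfcp2l1 lie closest to 0, and Klf4 spreads most, with library 3 lowest.

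The rest of the naive network was present as well. All 10 other naive-state genes were expressed, from Dppa3 at 22.8 ± 8.21 TPM to Mybl2, a cell cycle factor, at 517 ± 79.8 TPM (SD, n = 4). None was highest in library 2 (29.2% of all genes tested were) or 4 (19.9%), and 9 were lowest in library 2 (30.3%). Of the 13 formative and primed genes 11 were expressed. The median level of the 13 was 17.5 TPM. Fgf5, the usual mark of primed epiblast, was lowest at 0.876 ± 0.402 TPM. Otx2, at 10.8 ± 3.22 TPM, also lay below that median. Dnmt3b stood above it at 128 ± 9.65 TPM, and Utf1, which naive cells also express, was highest at 362 ± 73.9 TPM. Over the 12 formative and primed genes tested, the median centred values were 0.07, -0.02, 0.05 and -0.09 in libraries 1 to 4. They were 0.29, -0.35, 0.16 and -0.09 for the naive factors and close to 0 over all genes tested. The 12 genes did not move together: 4 were highest in library 2 (29.2% of all genes tested were) and 5 lowest there (30.3%). Their median SD over libraries was 0.287 on that log2 scale, against 0.286 for the naive factors and 0.172 over all genes tested.

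Of the LIF and Stat3 genes, 5 of 9 were highest in library 2 (29.2% of all genes tested were) and 5 of 9 lowest in library 1 (28.6%). All 9 genes of the LIF and Stat3 branch were expressed, with median centred values of -0.18, 0.13, -0.15 and 0.14 in libraries 1 to 4. In libraries 1 to 4, Lifr, the LIF receptor, was measured at 34.6, 70.4, 42.8 and 53.9 TPM, its partner Il6st at 47.4, 86.5, 59.7 and 76.7 TPM, and Stat3 at 62.6, 84.9, 65.6 and 82.7 TPM. These 3 were lowest in library 1 and highest in library 2, the opposite of Nanog and Zfp42. Bcl3, a target of Stat3, was instead lowest in library 2, at 36.5, 30.8, 36.7 and 31.3 TPM, and Jak2, a kinase of the receptor, was lowest in library 3, at 65.2, 66.4, 51.1 and 67.5 TPM. Socs3, a feedback target of Stat3, was nearly level at 64.4, 64.6, 57.0 and 70.7 TPM. All 9 genes of the beta-catenin and Gsk3 branch and all 10 genes that act in the exit from the naive state were expressed, and their median centred values lay between -0.14 and 0.07 and between -0.04 and 0.05. Tcf7l1, the repressor of Esrrb and Nanog, stood at 65.7 ± 5.30 TPM, and Etv5, an effector of Fgf and Erk, at 314 ± 21.5 TPM.

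Among markers of further cell types, those of trophoblast (7 of 8 expressed) gave nearly equal sums, at 178 to 184 TPM in sum, with Elf5 lowest at 1.53 ± 1.73 TPM. Endothelial markers (5 of 8 expressed) gave 98.1 to 111 TPM, although Emcn had 0 counts in libraries 1 to 3 and 2 counts in library 4.

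Markers of states in which some members also act were set beside them. The 8 germ cell markers were all expressed, at 173 to 189.98 TPM in sum, but several of them, such as Kit and Tfap2c, are expressed in other cells too. The sum hides opposite moves. Dazl stood at 19.5 TPM in library 1 and 4.98 TPM in library 2, and Kit at 42.5 and 76.0 TPM. Of the 8, 6 were lowest in library 2 (30.3% of all genes tested were) and 2 were highest there. The 6 markers of the 2-cell-like state that could be matched to a length gave 142, 43.3, 104 and 46.4 TPM in sum in libraries 1 to 4, with Zscan4d at 27.4 ± 15.5 TPM. Of these 6, 5 were highest in library 1 (29.7% of all genes tested were) and 5 lowest in library 2 (30.3%). Of the 10 members, 7 were also highest in library 1 and lowest in library 2. They were Zfp42, Nanog, Esrrb, Tfcp2l1, Tbx3, Tcl1 and Prdm14, although in Prdm14 libraries 2 and 4 nearly tied. Their full order of libraries was that of 11.8% of all genes tested.

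**Figure D5:**
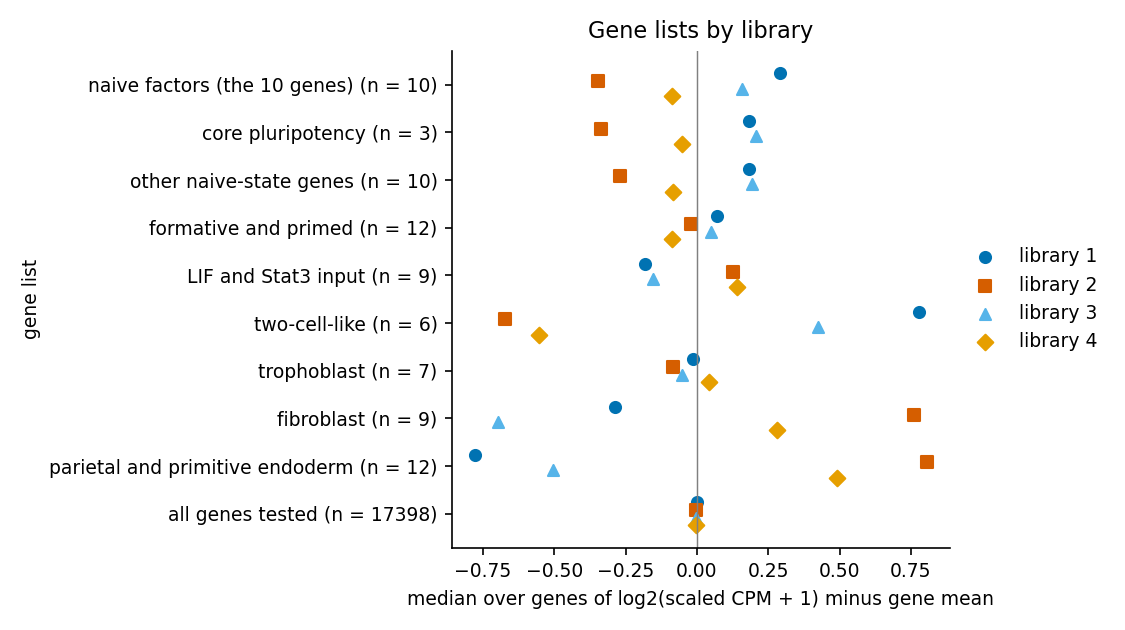
Median over the genes of each list of log2(scaled CPM + 1) minus the gene mean (horizontal axis) for libraries 1 to 4 (coloured points); n is the number of genes tested in the list. The naive factors lie at 0.29, -0.35, 0.16 and -0.09, and the endoderm markers lie on the other side of 0 in each library.

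Genes with the most similar pattern were sought among 9615 protein-coding genes with a mean of 10 CPM or more, by the root mean square distance between centred log2 values over the 4 libraries. Closest to the mean pattern of the members were Gabarapl2, Bclaf3, Acads, Tgif1 and Zswim1, at distances of 0.00921 to 0.0195. In all 572 genes lay within 0.1 of it, so 4 libraries single out few genes. Among the members Zfp42 lay closest to their mean pattern (0.0240) and Klf4 farthest (0.261). Closest to Nanog were Stac2, Pim1, Smad7, Ckb and Ooep, at 0.0280 to 0.0431. They were picked as the nearest of 9615 genes, so their being nearer than the other members says little. By the same distance Tcl1 ranked 85th (0.10), Tbx3 92nd, Prdm14 120th, Esrrb 128th and Zfp42 131st. Tfcp2l1 ranked 253rd, Klf2 1157th, Klf5 2327th and Klf4 4081st.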

How the data were processed

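Whole-number counts of reads per gene, not normalized, were deposited for 4 libraries of polyadenylated RNA that keep no strand, per the labels' protocols. The submitters' processing notes name STAR, featureCounts and the build GRCm39; no source used here states how reads were counted. Even numbers made up 60.0% to 62.6% of counts from 1 to 8, as when both ends of a pair are counted.

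TPM was computed from the union of exons in GENCODE M21 (GRCm38) for 48779 rows matched by symbol, gene ID or other symbol, which held 98.7% to 98.9% of the counts. CPM, TMM factors and within-library ratios were computed from the same counts. edgeR 4.0.16 (filterByExpr, quasi-likelihood test) compared each library with the other 3 across all genes, after being checked on simulated data; DESeq2 1.42.0 was an alternative. Alternatives also covered RLE factors, no filter, halved counts, and each library left out. These ran in R 4.3.3, with Python 3.11.15 for the other steps.

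The 10 genes and the other lists were chosen with earlier results of these data known. The genes named are the members, the highest and lowest of each list and the nearest patterns; other genes were chosen after their values were seen. The labels call the samples independently generated; p-values measure the spread between them.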

Additional observations from a re-analysis of the deposited data

Results flagged for a closer look

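The TPM ratio of Nanog to Pou5f1 was set apart in library 1, at 1.07 against 0.830 to 0.856 in libraries 2 to 4. The gap between library 1 and its nearest neighbour was 0.889 of the whole range, above the limit of 0.83 for 4 values. It was the only 1 of 28 values examined in this way (levels, ratios and summed markers) to pass that limit, and chance alone passes about 1 in 20.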

How the results depend on the processing

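The number of members called in a single library rested on the filter and on the other libraries. Without the low-count filter, edgeR found 2 members in library 1 and 2 in library 2, among 328 and 469 genes called. Leaving out 1 of the other libraries gave 0 to 7 called members for library 1 (7 without library 3, among 2206 genes), 0 to 7 for library 2 (7 without library 4, among 2552 genes), 0 to 2 for library 3 (2 without library 1, among 1303 genes) and 0 to 3 for library 4 (3 without library 2, among 1386 genes). RLE factors, DESeq2 and halved counts gave 0 in each comparison. The counts of members highest in each library, the number expressed, the median coefficient of variation and the median SD of the ratio to Pou5f1 kept within 1.5 times their value under every alternative run for them. Of 60 recomputed member levels 54 stayed within 1 SD, but leaving out 1 of 4 libraries cannot move a mean that far. The other 6 came from the length of the longest coding transcript, added after seeing the data. They were the levels of Zfp42, Nanog, Klf4, Tfcp2l1, Klf2 and Prdm14. In CPM, with no length, Zfp42, Esrrb and Tfcp2l1 were highest and Nanog stood at position 5. No paired analysis was possible because the libraries form 1 group. The smallest difference that 4 libraries could detect was not determined. Tbx3 in library 2, at -0.69 on the log2 scale with a biological coefficient of variation of 0.206, was not called.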
